A study of Mus musculus with 24 samples.

Results

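Expression of 10 genes that write, remove or help to remove DNA methylation was followed in mouse hippocampus after kainic acid: Gadd45a, Gadd45b, Gadd45g, Tet1, Tet2, Tet3, Dnmt1, Dnmt3a, Dnmt3b and Tdg. They were chosen by name, with earlier results of these data known. Each was found once among the 53379 genes of the count table, and all 10 were among the 37598 genes that passed the filter on low counts. Adult male C57/BL6N mice received kainic acid (KA) or saline (sham, SH) by intracortical injection next to the hippocampus, and kainic acid, an agonist of glutamate receptors, elicits a status epilepticus. Right hippocampi were taken 24 hours post injection and pooled, with 4 mice in the pool of replicate 1 and 2 mice in those of replicates 2 and 3, so that 8 mice stand behind the 3 pools of each treatment. Nuclei of each pool were sorted by flow cytometry on the neuronal nuclear protein NeuN into NeuN+ nuclei (neurons) and NeuN- nuclei (glia), which gave 12 mRNAseq libraries in 4 groups of 3: SH neurons, KA neurons, SH glia and KA glia. The values describe RNA of sorted nuclei from pooled animals, and the NeuN- group holds every cell type without NeuN.

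DNA methyltransferases place a methyl group on cytosine, mostly in CpG dinucleotides. Dnmt1 copies existing methylation to the new strand after replication, whereas Dnmt3a and Dnmt3b methylate DNA de novo. The TET enzymes oxidise 5-methylcytosine stepwise, thymine DNA glycosylase (Tdg) excises the last oxidation products, and base excision repair puts an unmodified cytosine back. The GADD45 proteins are small stress and activity induced adaptors without enzyme activity of their own, known for binding cell cycle and MAP kinase regulators and for recruiting repair factors in active demethylation. In hippocampal neurons, Gadd45b is a classic gene induced by neuronal activity and has been tied to demethylation at promoters of growth factor genes.

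The promoters of the GADD45 genes are shown because every member called in KA against SH in the main fit belongs to this family. The main fit is that of all 12 libraries without a replicate block. They are the 250 bases before the RefSeq start site on GRCm38.p6, 5′ to 3′ on the strand of the gene, and capitals mark every match to a CRE (TGACGTCA), CRE core (TGACG), AP-1 (TGANTCA), EGR (GCGNGGGCG) or CCAAT box (CCAAT) motif on either strand. They cover chr10:80929841-80930090 (Gadd45b, plus strand), chr13:51846425-51846674 (Gadd45g, plus strand) and chr6:67037408-67037657 (Gadd45a, minus strand).
Gadd45b: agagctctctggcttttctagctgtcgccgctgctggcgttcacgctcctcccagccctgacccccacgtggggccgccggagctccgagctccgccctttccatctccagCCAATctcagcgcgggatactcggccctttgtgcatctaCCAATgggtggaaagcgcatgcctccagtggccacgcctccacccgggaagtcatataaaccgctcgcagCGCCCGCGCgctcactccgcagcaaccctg
Gadd45g: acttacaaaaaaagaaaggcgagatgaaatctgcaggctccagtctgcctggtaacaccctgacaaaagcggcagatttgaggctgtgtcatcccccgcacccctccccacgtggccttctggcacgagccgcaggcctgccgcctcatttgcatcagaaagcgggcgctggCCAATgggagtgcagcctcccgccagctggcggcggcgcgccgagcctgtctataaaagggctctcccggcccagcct
Gadd45a: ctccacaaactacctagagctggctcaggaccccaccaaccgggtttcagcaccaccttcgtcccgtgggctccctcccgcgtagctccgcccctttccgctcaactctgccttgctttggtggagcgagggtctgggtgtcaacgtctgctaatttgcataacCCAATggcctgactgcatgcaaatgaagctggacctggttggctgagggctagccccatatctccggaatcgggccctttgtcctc
Each of the 3 held a CCAAT box on the plus strand of the gene, starting 139 and 100 bases before the start site in Gadd45b, 78 in Gadd45g and 86 in Gadd45a. A CCAAT box was present in 37.4% of all 32851 RefSeq windows from 250 bases before to 50 after a start site. Gadd45b also held an EGR motif, on the opposite strand and starting 30 bases before the start site, which 5.55% of windows had. No AP-1 motif (7.81% of windows) and no CRE core (20.8%), which every full CRE (1.79%) contains on both strands, was found in these windows of the GADD45 genes. Among the other members, Tdg alone had a full CRE, 135 bases before its start, Tet1 and a Dnmt3a start had 1 EGR motif each, and Dnmt3b had 2. The E-box (CANNTG), present in 72.3% of windows, occurred 3 times in Gadd45g and once each in Gadd45a and Gadd45b, and it was left in lower case. The windows of the 3 genes held 24 (Gadd45b), 21 (Gadd45g) and 14 (Gadd45a) CpG dinucleotides against a median of 7 over all windows, whereas Tet2 had 57, more than 99.8% of windows.

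Reads per library summed to between 7769400 and 40364768. Within each group the library numbered 3 had fewer genes with a count (36165 to 42160) than the other two (40660 to 47748 over the groups), and SH glia replicate 1 and KA glia replicate 2 were amplified from about 0.05 ng RNA with 15 cycles in place of 1 ng and 10 cycles. The sort was visible in its markers: the summed level of 10 neuronal genes was 4153 to 7107 CPM in neurons and 357 to 1431 CPM in glia, and that of 7 oligodendrocytic genes was 139 to 1260 CPM in neurons and 7421 to 29422 CPM in glia. Levels are given in CPM, counts scaled to a common library size after TMM normalization, and group values are given as mean ± SD of the 3 pools (n = 3).

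Gadd45g was upregulated in neurons and in glia. The gene (ENSMUSG00000021453, chr13:51846678-51848468 on GRCm38, protein coding) encodes a GADD45 protein known as a growth arrest and stress sensor. In SH neurons its level was 30.0, 13.7 and 24.9 CPM in replicates 1, 2 and 3, and in KA neurons 79.1, 117 and 299 CPM. Every KA library of neurons lay above every SH library, and the KA library of replicate 3 stood highest. The group means were 22.9 ± 8.35 CPM in SH and 165 ± 117 CPM in KA (SD, n = 3). The fitted logFC was 2.85 (standard error 0.50), or 7.22-fold with a 95% interval of 3.46 to 15.1. Gadd45g passed the FDR threshold of 0.25 in neurons (FDR 0.0527, edgeR quasi-likelihood test, Benjamini-Hochberg adjusted over all genes tested). In SH glia the level was 17.5, 21.9 and 15.2 CPM and in KA glia 94.2, 79.2 and 172 CPM, again without overlap. The logFC in glia was 2.66 (standard error 0.50, FDR 0.0438 by edgeR), which is 6.32-fold (95% interval 3.05 to 13.1). With single libraries left out, the call in glia held in all 6 fits, while that in neurons was lost without SH neurons replicate 1 (FDR 0.314), SH neurons replicate 2 (FDR 0.292) or KA neurons replicate 3 (FDR 0.372, 4.30-fold). Without both libraries of low input the FDR in glia was 0.373, at a logFC of 2.79.

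Gadd45b was upregulated in glia, and in neurons its libraries separated without passing the threshold in the main fit. The gene (ENSMUSG00000015312, chr10:80930073-80932204, protein coding) encodes the family member known for induction by seizures and synaptic activity. In SH glia its level was 7.40, 39.3 and 4.90 CPM in replicates 1, 2 and 3, and in KA glia 163, 62.6 and 201 CPM. The lowest KA library exceeded the highest SH library, and the SH library of replicate 2 stood well above the other two. The logFC in glia was 3.04 (standard error 0.72, FDR 0.137 by edgeR), which is 8.25-fold with a 95% interval of 2.89 to 23.6. In SH neurons the level was 24.7, 7.88 and 13.0 CPM and in KA neurons 48.7, 47.1 and 112 CPM. All KA libraries of neurons lay above all SH libraries (logFC 2.19, standard error 0.69), with an FDR of 0.662 by edgeR. With the replicate number as a block the FDR was 0.0670 in neurons and 0.00477 in glia. The call in glia was lost without SH glia replicate 1 (FDR 0.378), SH glia replicate 3 (FDR 0.481) or KA glia replicate 3 (FDR 0.292), and without both libraries of low input (FDR 0.482). It was also lost when glia were fitted separately from neurons, as in the study. Without SH glia replicate 2 the logFC was 4.53, or 23.2-fold (FDR 0.0322).

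Gadd45a, the member of the family induced by DNA damage through p53, did not pass the threshold in either cell type in the main fit. In SH glia it had 5.39, 12.3 and 10.9 CPM and in KA glia 17.8, 15.4 and 36.6 CPM, so that the 3 KA libraries lay above the 3 SH libraries. The logFC in glia was 1.28 (standard error 0.49, FDR 0.754 by edgeR), and with the replicate block it passed (logFC 1.26, FDR 0.0541). It also passed with at least 10 counts required in every library. In neurons the groups overlapped, with 4.90, 8.89 and 14.9 CPM in SH and 7.69, 9.93 and 18.5 CPM in KA (logFC 0.33, 95% interval -0.70 to 1.37). Of the exonic bases of Gadd45a (ENSMUSG00000036390, chr6:67035096-67037457), 19.1% are shared with E230016M11Rik on the opposite strand, and the counting did not use strand, so reads there were left out as ambiguous.

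**Figure D1:**
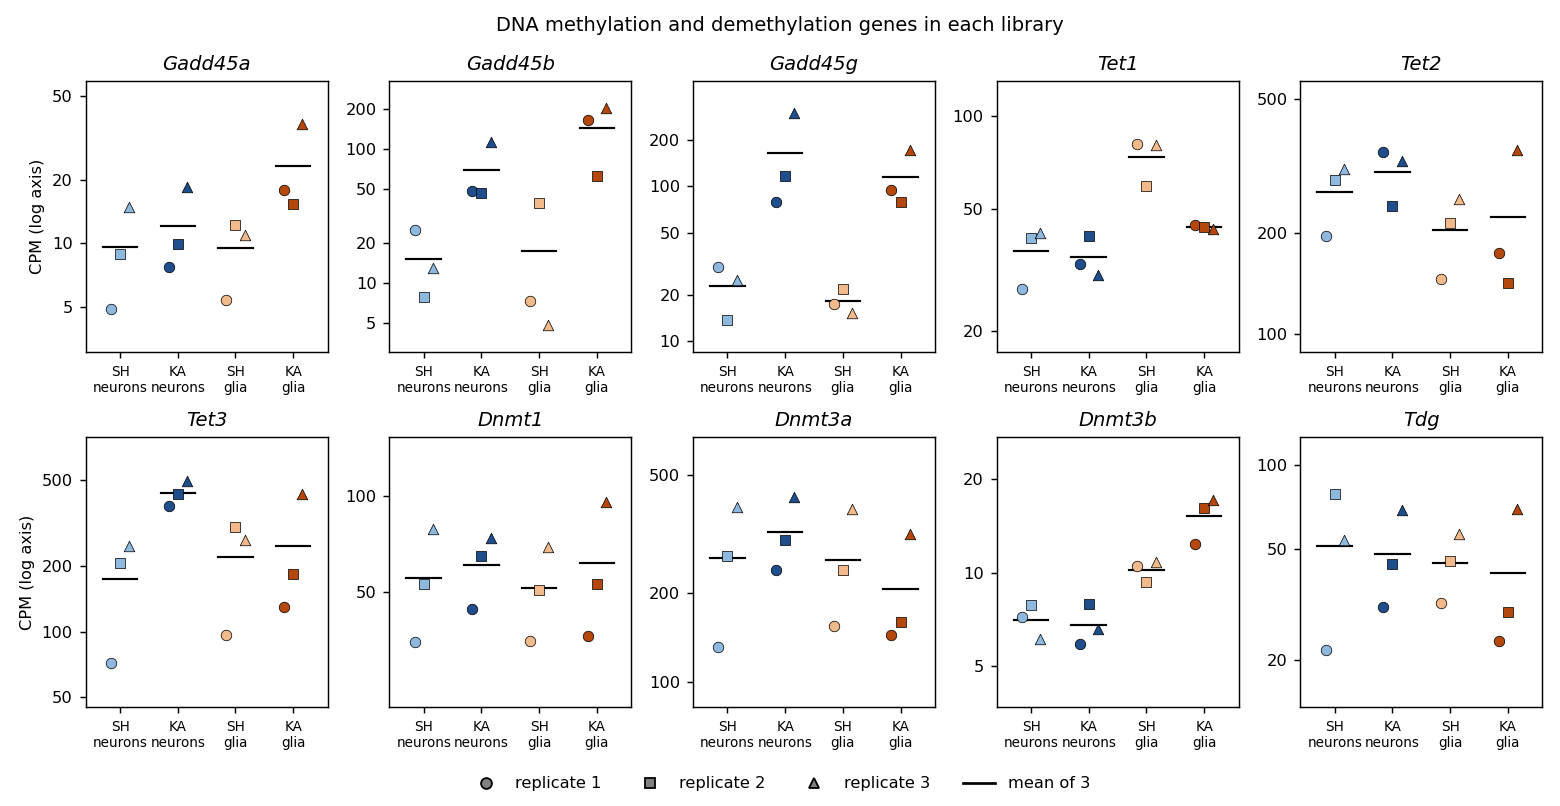
CPM (log axis) of the 10 genes in each of the 12 libraries, with circles, squares and triangles for replicates 1, 2 and 3 and a line for the mean of each group of 3. Gadd45g and Gadd45b in KA lie above SH in neurons and in glia, and Tet3 in KA neurons lies at 379 to 495 CPM against 71.7 to 248 CPM in SH neurons.

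No TET gene passed the threshold in the main fit. Tet3, a TET enzyme prominent in adult brain, had 71.7, 207 and 248 CPM in SH neurons and 379, 432 and 495 CPM in KA neurons. The 3 KA libraries lay above the 3 SH libraries, and SH neurons replicate 1 stood lowest. The logFC was 1.31 (standard error 0.55, 2.48-fold, 95% interval 1.10 to 5.57). At an unadjusted p of 0.0301 by edgeR, Tet3 did not pass the FDR threshold, and with the replicate block it did (logFC 1.48, FDR 0.0161). Tet3 also passed when neurons were fitted separately from glia, as in the study, and in no other alternative. In glia its libraries overlapped, with 96.1, 303 and 266 CPM in SH and 130, 185 and 430 CPM in KA (logFC 0.16, 95% interval -0.98 to 1.31). Tet1, the TET enzyme known for binding CpG rich DNA through a CXXC domain, had 81.4, 59.4 and 80.4 CPM in SH glia and 44.2, 43.6 and 42.9 CPM in KA glia. The KA libraries of glia were close to each other and all below SH (logFC -0.76, standard error 0.30), with an FDR of 0.772 by edgeR and of 0.147 with the replicate block. Tet1 in glia also passed with DESeq2 and with at least 10 counts required in every library. In neurons Tet1 ranged from 27.4 to 41.6 CPM in SH and from 30.4 to 40.7 CPM in KA, with overlap. Tet2, which lacks a CXXC domain, ranged from 142 to 352 CPM over all libraries and overlapped between KA and SH in both cell types (logFC 0.20 in neurons and 0.13 in glia).

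No methyltransferase passed the threshold. The maintenance enzyme Dnmt1 had 34.9, 53.2 and 78.5 CPM in SH neurons, 44.2, 64.7 and 73.6 CPM in KA neurons, 35.2, 50.6 and 69.1 CPM in SH glia, and 36.5, 52.9 and 95.6 CPM in KA glia. In each group the library of replicate 3 was highest and that of replicate 1 lowest, and KA and SH overlapped. Dnmt3a, the de novo enzyme that dominates in postmitotic neurons, followed the same order of libraries, from 132 to 390 CPM in SH neurons, from 239 to 419 CPM in KA neurons, from 154 to 382 CPM in SH glia and from 144 to 315 CPM in KA glia. Its logFC was 0.28 in neurons (95% interval -0.73 to 1.30) and -0.32 in glia (95% interval -1.34 to 0.69). Dnmt3b, the de novo enzyme of early development, was the least abundant member per length in neurons. Its glial libraries separated, with 10.5, 9.30 and 10.8 CPM in SH and 12.3, 16.2 and 17.1 CPM in KA (logFC 0.58, standard error 0.34), at an unadjusted p of 0.108 by edgeR. In neurons it had 6.12 to 7.84 CPM in SH and 5.89 to 7.91 CPM in KA.

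Tdg, which excises oxidised methylcytosine, ranged from 21.7 to 78.8 CPM and overlapped between KA and SH in both cell types (logFC -0.10 in neurons and -0.12 in glia). Its values are uncertain, since 49.2% of its exonic words of 50 bases occur elsewhere in GRCm38 and the authors counted uniquely mapped reads. The share was 8.49% in Dnmt3b, 1.80% or less in Dnmt1, Dnmt3a and the TET genes, and 0 of 1666, 1442 and 1026 words in Gadd45a, Gadd45b and Gadd45g. The authors sequenced reads longer than these words, so a lower share of reads may be ambiguous.

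**Figure D2:**
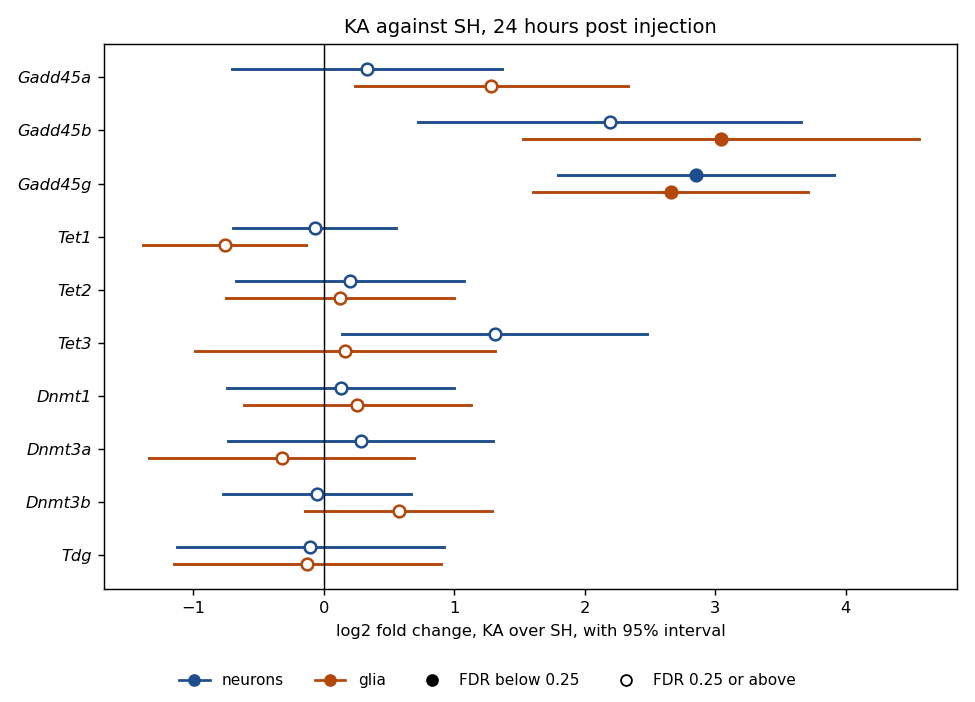
logFC (log2 scale) of KA over SH in neurons and glia for each gene, with the 95% interval of the quasi-likelihood fit and filled points for an FDR below 0.25. Filled points are Gadd45g in neurons (2.85) and Gadd45g (2.66) and Gadd45b (3.04) in glia.

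In the main fit, 1 of 10 members passed the threshold in neurons, upwards, against 0.279% of all genes tested that were called up, and 2 of 10 passed in glia, both upwards, against 0.442%. The members were chosen with earlier results of these data known, so the shares here and below are descriptive. With the replicate block the members called were 3 in neurons (Gadd45b, Gadd45g and Tet3, all up, against 1.94% of genes called up) and 4 in glia (Gadd45a, Gadd45b and Gadd45g up, against 3.47%, and Tet1 down, against 4.17%). KA libraries lay wholly above SH libraries for 3 members in neurons (5.27% of all genes) and for 4 in glia (3.61%), and wholly below for 1 in glia (3.00%). The median logFC of the members was 0.24 in neurons and 0.21 in glia, against 0.00048 and 0.14 over all genes tested. In glia, levels of cell type markers moved with treatment: the summed level of the 7 oligodendrocytic genes was 14076 to 29422 CPM in SH and 7421 to 13878 CPM in KA, and that of 4 genes of oligodendrocyte precursors 1406 to 2159 and 529 to 840 CPM, while the sums of 8 astrocytic, 8 microglial and 10 neuronal genes overlapped. The part of these shifts in the glial values of the members was not tested, and in sorted bulk nuclei fewer nuclei of a type and less RNA per nucleus cannot be told apart.

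Libraries of the same replicate number often held the same place in their groups. The library of replicate 3 was the highest in all 4 groups for Dnmt1 and Dnmt3a and in 3 groups for Gadd45a, Tet2, Tet3 and Tdg, and in KA glia it was highest for 9 of the 10 members. How many of all genes had this order was not computed. The paper names different sequencing instruments for its mRNA libraries, single read or paired end, without saying which library ran on which. The part of the instrument in this order was not tested. When KA was divided by SH of the same number, Gadd45g in KA was 2.63, 8.56 and 12 times its SH partner in neurons and 5.38, 3.62 and 11.3 times in glia. Gadd45b was 1.97, 5.97 and 8.60 times higher in neurons and 22.1, 1.59 and 41.0 times in glia. The ratio of 1.59 sets the highest SH library (39.3 CPM) against the lowest KA library (62.6 CPM). In glia, number 1 sets KA from 1 ng RNA against SH from 0.05 ng, and number 2 the reverse. The part of RNA input in the glial ratios and in the glial block fit was not tested. Tet3 in neurons was 5.29, 2.08 and 1.99 times higher, and Tet1 in glia was 0.544, 0.733 and 0.534 times its SH partner. In all, 5 members were above 1 in every pair in neurons, the others being Gadd45a (1.12 to 1.57) and Dnmt3a (1.08 to 1.82), and 5 in glia, the others being Gadd45a (1.26 to 3.35), Dnmt1 (1.04 to 1.38) and Dnmt3b (1.17 to 1.74). Below 1 in every pair were 0 members in neurons and 2 in glia, Tet1 and Dnmt3a (0.670 to 0.937). The share of all genes above or below 1 in every pair was not computed. These counts therefore do not set the members apart from other genes.

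**Figure D3:**
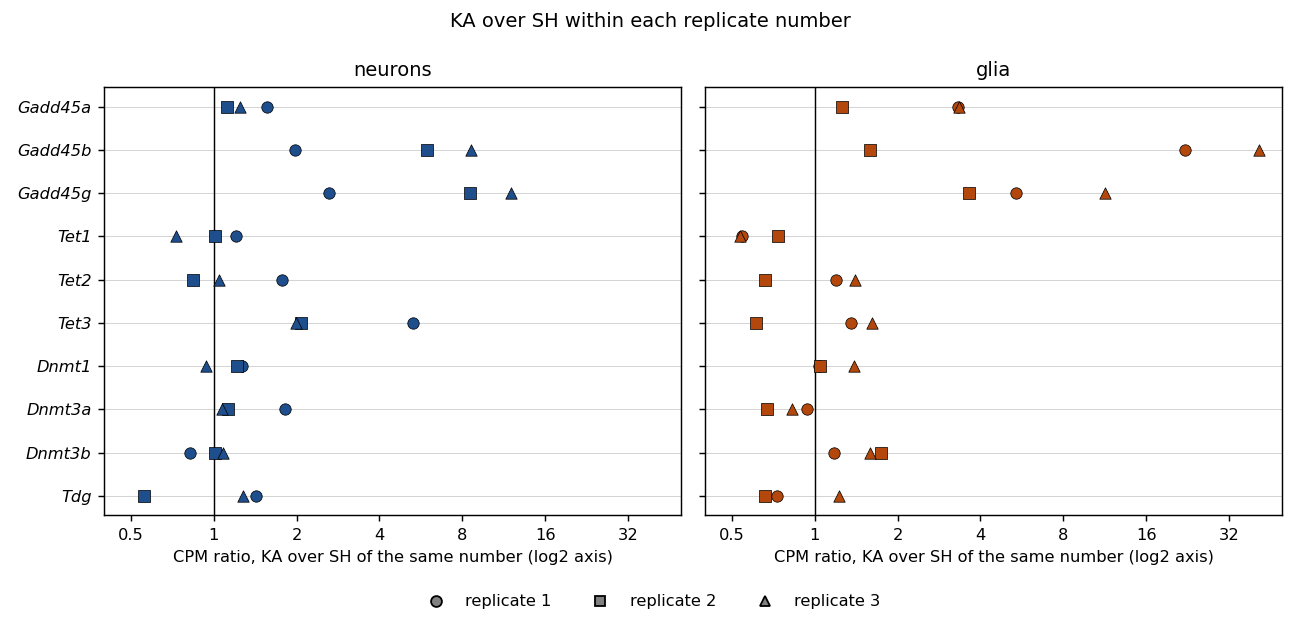
Ratio of CPM in KA to CPM in SH of the same replicate number (log2 axis) for each gene in neurons and in glia, with circles, squares and triangles for numbers 1, 2 and 3. Gadd45b in glia spreads from 1.59 to 41.0, while Tet1 in glia stays between 0.533 and 0.733.

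Whether the effect of KA differed between neurons and glia was tested as the difference of their logFC. By edgeR, 0 of 10 members and 0 of 37598 genes passed (0% called). At an unadjusted p under 0.05 there were 502 genes and 0 members, DESeq2 called 39 genes and 0 members, and the replicate block 177 genes (0.471%) and 0 members. With the block, an unadjusted p under 0.05 by edgeR was reached by 4 members, Tet3 (1.35, standard error 0.38), Gadd45a (-0.89, 0.38), Dnmt3a (0.70, 0.31) and Tet1 (0.69, 0.31), beside 4.65% of all genes, with FDR values of 0.362 for Tet3 and 0.973 or above for the others. In the fit without the block the difference, neurons minus glia, was 0.19 for Gadd45g (95% interval -1.21 to 1.59), -0.85 for Gadd45b (-2.85 to 1.14) and -0.95 for Gadd45a (-2.41 to 0.51). It was 1.14 for Tet3 (-0.48 to 2.77) and 0.69 for Tet1 (-0.19 to 1.57). These intervals of Gadd45b, Gadd45a and Tet3 hold both 0 and differences of more than 2 on the log2 scale.

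Neurons and glia of a replicate were sorted from the same pool. In the fit without the block, Tet1 was called lower in neurons than in glia in SH and Dnmt3b in KA. In that fit the share of the members was near that of all genes, and the calls with the block are given below. Tet1 in SH had 27.4, 40.1 and 41.6 CPM in neurons and 81.4, 59.4 and 80.4 CPM in glia, without overlap (logFC -1.02, standard error 0.30, FDR 0.0351 by edgeR). That is 2.03-fold lower in neurons, with a 95% interval of 1.31 to 3.13. In KA it had 33.1, 40.7 and 30.4 CPM in neurons and 44.2, 43.6 and 42.9 CPM in glia, also without overlap (logFC -0.33, FDR 0.732 by edgeR). Dnmt3b in KA had 5.89, 7.91 and 6.60 CPM in neurons and 12.3, 16.2 and 17.1 CPM in glia (logFC -1.16, standard error 0.34, FDR 0.0402 by edgeR), which is 2.23-fold lower in neurons (95% interval 1.35 to 3.69). In SH it had 7.20, 7.84 and 6.12 CPM against 10.5, 9.30 and 10.8 CPM (logFC -0.53, FDR 0.480, and 0.234 with the replicate block). In each treatment 1 of 10 members was thus called lower in neurons, against 7.57% of all genes in SH and 6.62% in KA, and the libraries of 2 members (Tet1 and Dnmt3b) lay wholly lower in neurons, against 8.57% of genes in SH and 9.84% in KA. With the replicate block 2 members were called lower in SH, Tet1 and Dnmt3b, against 11.8% of genes. In KA the block called 6 members, where 20.5% of all genes were called higher and 10.9% lower in neurons: Tet3 (logFC 0.99, FDR 0.0150), Dnmt3a (0.68, FDR 0.0398) and Tet2 (0.55, FDR 0.157) higher, and Gadd45a (-0.94, FDR 0.0196), Gadd45b (-0.99, FDR 0.243) and Dnmt3b (-1.16, FDR 0.00779) lower in neurons. Both calls of the unblocked fit held in every fit with a library left out. The summed markers of the other cell type, given above for neuronal and oligodendrocytic genes, were above 0 in every library, and the part of such RNA in these differences was not tested.

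**Figure D4:**
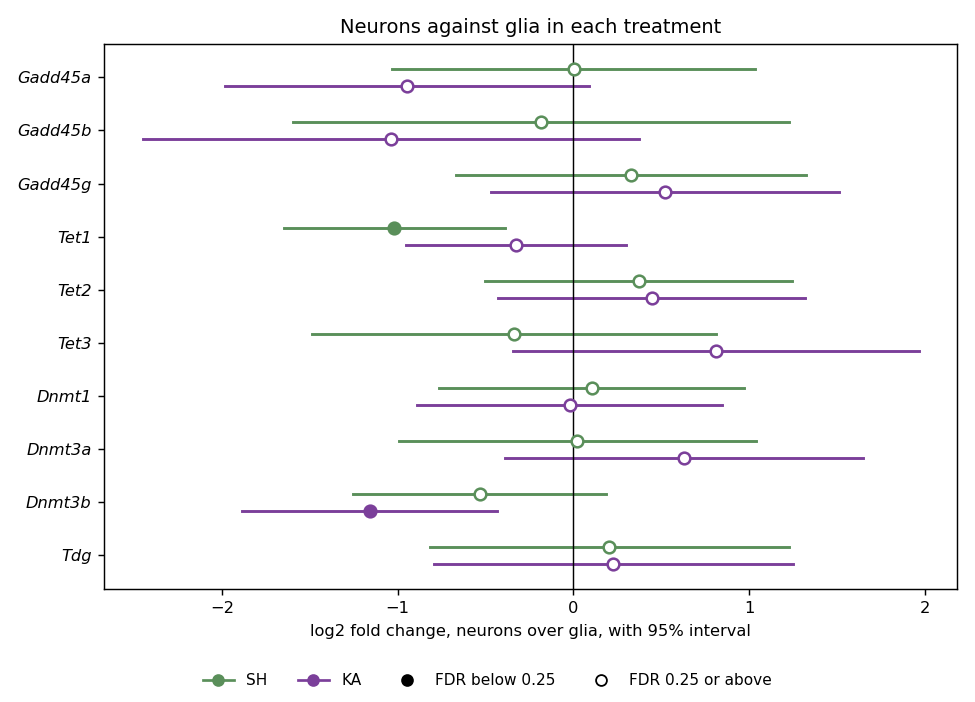
logFC (log2 scale) of neurons over glia in SH and in KA for each gene, with the 95% interval and filled points for an FDR below 0.25. The filled points are Tet1 in SH (-1.02) and Dnmt3b in KA (-1.16), both lower in neurons.

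Levels of different genes were compared per kilobase of exon. In SH neurons Gadd45g (19.5 ± 7.12 CPM per kb), Dnmt3a (15.8 ± 7.76) and Tet2 (15.7 ± 3.56) came first (SD, n = 3), and neighbours overlapped among the genes of rank 1 to rank 8. Tet1 (2.35 ± 0.507 CPM per kb) and Dnmt3b (1.38 ± 0.170) came last, each below its upper neighbour in every library. In KA neurons Gadd45g (141 ± 100 CPM per kb), Gadd45b (43.6 ± 23.3) and Tet3 (26.1 ± 3.47) led, again with overlap between neighbours, and Tet1 and Dnmt3b came last without overlap. In SH glia Dnmt3a (15.5 ± 6.93 CPM per kb) and Gadd45g (15.5 ± 2.89) came first. In KA glia Gadd45g (98 ± 42.2 CPM per kb) and Gadd45b (89.5 ± 44.9) overlapped each other, and every library of Gadd45b exceeded every library of the next gene, Tet3 (14.9 ± 9.55). These ranks rest on the total exon length of each gene, not on the transcripts in use.

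Other genes came from lists of methylation and demethylation and from a list of 10 GADD45 partners, which holds cell cycle and MAP kinase genes. Of these 51 genes, 50 passed the filter, and 1 of them, a GADD45 partner, passed the threshold in neurons and 0 in glia. The gene was Cdkn1a (ENSMUSG00000023067), which encodes the cyclin dependent kinase inhibitor p21, a binding partner of GADD45 proteins. It had 4.36, 4.34 and 5.80 CPM in SH neurons and 19.7, 29.5 and 65.9 CPM in KA neurons, without overlap (logFC 2.99, standard error 0.59, FDR 0.0893 by edgeR). In glia Cdkn1a had 47.6, 100 and 34.9 CPM in SH and 169, 47.3 and 230 CPM in KA, with overlap (logFC 1.29, FDR 0.920). In neurons its FDR rose above the threshold without any SH library (0.574, 0.357 and 0.307 without replicates 1, 2 and 3) and without KA replicate 3 (0.594, logFC 2.35).

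Among the lists, 12 genes of base excision repair had 0 calls in either cell type, as had 6 partners of the methyltransferases, 6 TET partners and genes of cofactor supply, 7 methyl-CpG readers, 6 genes of the S-adenosylmethionine cycle and the 3 cytidine deaminases that passed the filter. At an unadjusted p under 0.05 by edgeR there were 2 of the 50 genes in neurons (Cdkn1a and Mat2b) and 4 in glia (Apobec1, Cdkn1a, Hells and Idh1), beside 3.2% and 4.79% of all genes tested. DESeq2 called 1 of the 50 in neurons and 2 in glia, beside 456 and 1010 of all genes tested. The median logFC over the 50 genes was -0.18 in neurons and 0.014 in glia, beside 0.00048 and 0.14 over all genes. In neurons 15 of the 50 had a positive logFC and in glia 25, beside 18814 and 22028 of the 37598 genes tested. With the replicate block the calls were Cdkn1a and the methyl-CpG binding protein gene Mbd2 (logFC 0.79, FDR 0.202) in neurons (2 of 50 up, beside 1.94% of all genes), and 3 up and 3 down in glia (beside 3.47% and 4.17%). Among those up in glia were the cytidine deaminase gene Apobec1 (logFC 1.28, FDR 0.0478) and the chromatin remodeller gene Hells (1.03, FDR 0.0866). Those down were the DNA polymerase gene Polb (-0.62, FDR 0.241), Mat2b of methionine adenosylation (-0.67, FDR 0.247) and Idh1 (-0.77, FDR 0.227), which makes the TET cofactor.

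**Figure D5:**
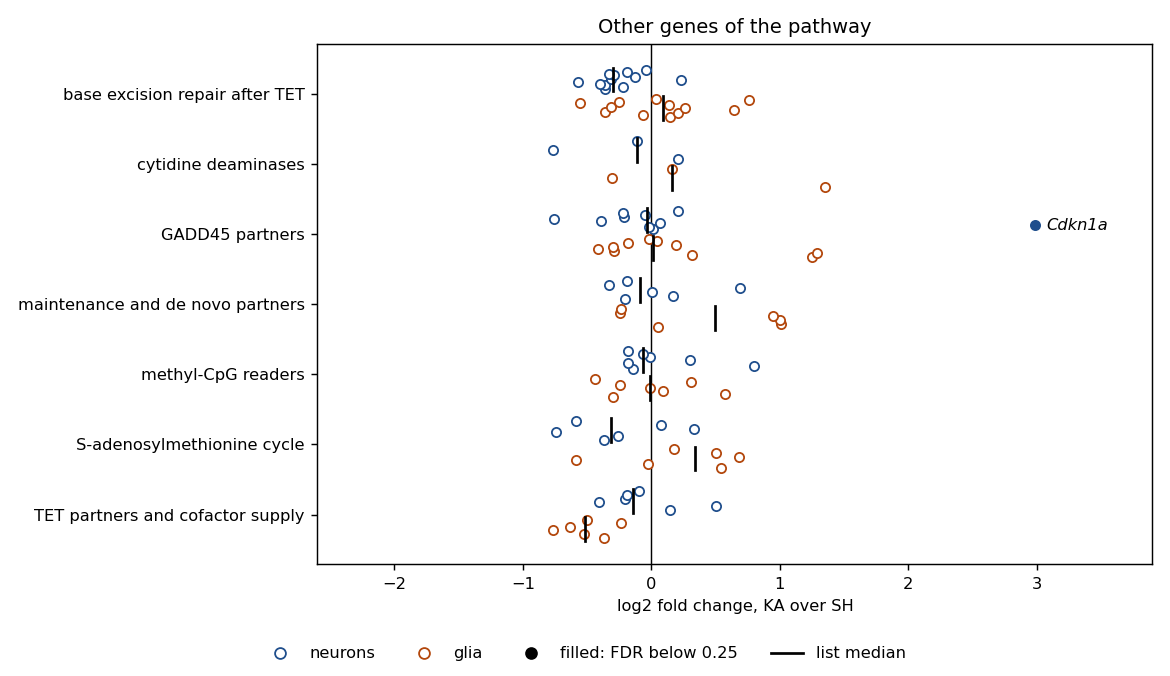
logFC (log2 scale) of KA over SH for the 50 other genes, by list, in neurons and in glia. The lists cover methylation, demethylation and GADD45 partners. A line marks the median of each list, and filled points an FDR below 0.25. The only filled point is Cdkn1a, a GADD45 partner, in neurons at 2.99.

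Genes whose levels ran most like those of the upregulated members were sought among 20345 protein coding genes by Pearson's r of log2 CPM over the 12 libraries. For Gadd45b they were Fos (r = 0.960), Ier2 (r = 0.921) and Ret (r = 0.920), the first of these a component of the transcription factor AP-1, Ier2 an immediate early gene and Ret a receptor tyrosine kinase. For Gadd45g they were Tpbg (r = 0.970), S100a10 (r = 0.953) and Cast (r = 0.953), which encode a trophoblast glycoprotein, an annexin partner and the calpain inhibitor calpastatin. The 12 points share 2 treatments, 2 cell types and 3 replicate numbers, and the values describe likeness only.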

How the data were processed

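Reads were trimmed by the authors with Trim Galore 0.4.3 and aligned to mm10 (Rsubread), and those mapping uniquely were counted per gene of GENCODE M16 by featureCounts with default settings. The counts they deposited are whole reads per gene and library without normalization. RRBS samples were not analysed here. The members and gene lists were chosen with earlier results of these data known.

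Genes with a symbol in GENCODE M21 (GRCm38, 53274 of 53379 genes) were filtered with filterByExpr (minimum count 10, minimum total 15) and tested with edgeR 4.0.16 in R 4.3.3: TMM factors, 4 group means over all 12 libraries, glmQLFit with legacy=TRUE, glmQLFTest, Benjamini-Hochberg adjustment over 37598 genes and an FDR threshold of 0.25. The study fitted neurons and glia separately; that fit is an alternative, because 1 fit of all libraries also gives the comparisons between cell types. The standard error of a logFC was taken as its absolute value divided by the square root of the F statistic. The fits were run on simulated counts drawn independently for each library, without any likeness of libraries that share a replicate number. That run therefore cannot tell how the fits with and without the block behave in these data. DESeq2 1.42.0 served as an alternative, beside separate fits, other filters and scalings, and libraries left out.

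The replicate numbers were checked as pairs by correlating deviations from group means across genes: KA and SH of replicates 1, 2 and 3 gave 0.399, 0.264 and 0.551 (neurons), and glia 0.457, 0.543 and 0.764. Neurons and glia of the same pool gave 0.590, 0.293 and 0.649 (KA) and 0.435, 0.507 and 0.638 (SH). All exceed 0.1, so the replicate number entered as a block (within cell type, or by pool between cell types) in a second fit, and its values stand where they change a call. The labels give the numbers, not what they mean. Without the block, p values measure the spread between pools. With it, they measure the spread left after the replicate number or the pool is taken out.

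Named genes were the 10 members, genes of the 7 pathway lists past the threshold in KA against SH, and the 3 protein coding genes most correlated with each called member (prior count 2). Pathway genes called with the block alone, and those at an unadjusted p under 0.05, were picked with their values in view. The result for 1 of them is not reported. Marker lists held 10 genes of neurons, 8 of astrocytes, 8 of microglia, 7 of oligodendrocytes and 4 of their precursors, 5 of endothelium, 4 of pericytes and 7 of blood leukocytes. Between SH and KA glia, summed levels overlapped for endothelial (10.2 to 36.4 and 18.7 to 52.6 CPM), pericytic (30.8 to 41.9 and 21.5 to 49.9 CPM) and leukocyte genes (72.8 to 82.2 and 81.6 to 118 CPM). Promoters are those of RefSeq on GRCm38.p6, and all 10 members matched by symbol. Plots were made in Python 3.11.15 with matplotlib 3.10.9.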

Additional observations from a re-analysis of the deposited data

How the results depend on the processing

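Counts of members called are given over 16 refits per comparison and 21 for the difference between cell types. In KA against SH in neurons 1 member was called. Separate fits and the replicate block each called 3, Gadd45b, Gadd45g and Tet3. DESeq2 called 2, Gadd45b and Gadd45g. The count was 0 at an FDR of 0.05. It was also 0 without the 4 libraries numbered 3, an alternative chosen after seeing the data. Leaving out single libraries gave 0 to 1. In glia 2 were called. Separate fits called 1, Gadd45g alone. DESeq2 called 3, with Tet1 added. The replicate block and at least 10 counts in every library each called 4, with Gadd45a and Tet1 added. The count was 1 at an FDR of 0.05, and 0 without both low-input libraries or without the libraries numbered 3. Leaving out single libraries gave 1 to 2. Between neurons and glia in SH 1 was called, and 2 with separate fits, DESeq2, at least 10 counts in every library or the replicate block (1 to 2 without single libraries). In KA 1 was called, and 6 with the replicate block, 4 with separate fits, 4 with at least 10 counts in every library, 4 without the libraries numbered 3, 3 with DESeq2, and 2 with RLE factors or without both low-input libraries (1 to 4 without single libraries). The difference between cell types had 0 members in every alternative. Over all genes, the count called went from 128 to between 11 and 1147 in neurons and from 281 to between 6 and 2871 in glia. Between neurons and glia it went from 7474 to between 4408 and 12667 in SH, and from 6690 to between 3801 and 11788 in KA. Each upper value is that of the replicate block, so the calls of members rose together with those of all genes. The block changed no other member's call than those given in the report and here.

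Without the libraries numbered 3, the logFC of Gadd45g was 2.17 in neurons (FDR 0.358) and 2.13 in glia (FDR 0.317), and that of Gadd45b in glia 2.26 (FDR 0.718). Gadd45g and Gadd45b stayed above 0 in KA against SH under all alternatives run, with FDR values from 7.5e-06 to 0.372 for Gadd45g in neurons, 1.8e-05 to 0.373 for Gadd45g in glia and 0.00049 to 0.718 for Gadd45b in glia. Gadd45b between neurons and glia in SH turned from -0.18 to 1.32 (FDR 0.228) without SH glia replicate 2, with a range of -0.84 to 1.32 over fits without single libraries. RLE factors moved the median of all genes between neurons and glia by -0.15 in SH and -0.15 in KA, and turned the sign of Gadd45a, Dnmt1 and Dnmt3a in SH, none of them called. The causes were not tested.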
